A study of Mus musculus with 2 samples.

Results

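The genes described here are the variable (V), diversity (D), joining (J) and constant (C) gene segments of the T cell receptor, with the sequence between them and the enhancers beside them. They were taken from GENCODE M21 as the genes of the types TR_V_gene, TR_D_gene, TR_J_gene and TR_C_gene on chromosomes 6, 13 and 14, which gave 226 of 55413 genes on chromosomes 1 to 19, X and Y. The *Tra/Trd* locus on chromosome 14 held 172 of them, the *Trb* locus on chromosome 6 held 39 and the *Trg* locus on chromosome 13 held 15. Reads of Gata3 ChIP-seq from splenic TH2 cells expanded *in vitro* were available in 2 libraries, replicates 1 and 2 of the same condition, with no second group and no input or IgG library used here. The mice of the study were on the C57BL/6 background, and the genotype of the mice that gave these cells is not stated in the labels' fields or the methods. One field of the labels names ILC2 in place of TH2 cells.

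T cell receptor genes are assembled by V(D)J recombination. The RAG recombinase cuts beside a V and a J segment, and for *Trb* and *Trd* also beside a D segment, and the DNA between the joined segments is usually removed from the chromosome as a circle. *Trd* lies inside *Tra*, between the *Trav* and *Traj* segments, so that a V to J join in *Tra* removes it. Each locus has enhancers, among them Eα downstream of *Trac* and Eβ downstream of *Trbc2*, which drive recombination and transcription in T cells. Gata3, a zinc finger factor that binds the sequence WGATAR (below, GATA words, which are AGATAA and its variant TGATAA, with the forms ending in G, spelled AGATAG for the former and TGATAG for the latter, on either strand), is known both for its part in early T cell development and for type-2 cytokine expression in TH2 cells.

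The recombination signals beside the segments can be read in the reference sequence. The 4 D segments are shown with 16 bases either side, in capitals for the segment, 5′ to 3′ on the plus strand of GRCm38, since a signal lies on both sides of each.
*Trdd1*, 14, 54113452 to 54113494: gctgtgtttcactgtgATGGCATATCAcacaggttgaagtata
*Trdd2*, 14, 54122210 to 54122257: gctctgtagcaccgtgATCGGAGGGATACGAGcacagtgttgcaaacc
*Trbd1*, 6, 41533185 to 41533228: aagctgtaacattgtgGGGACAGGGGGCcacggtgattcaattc
*Trbd2*, 6, 41542147 to 41542192: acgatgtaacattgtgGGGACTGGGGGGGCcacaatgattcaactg
In *Trdd2* the canonical signal heptamer cacagtg follows the segment directly. The same 7 bases followed the annotated end of 104 of 144 V segments (72.2%), against 349 of all 55413 genes (0.630%). Its reverse complement, cactgtg, preceded the annotated start of 19 of 70 J segments (27.1%), against 31 of all genes (0.0559%).

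Library 1 held 40526613 reads and library 2 held 24970952 reads. Reads without a unique position had been removed by the authors, and V segments are often near copies of each other, so reads were counted per unique start, meaning a position whose 50 bases occur only once in the sequences used for alignment. Of the genome, 82.8% of positions were unique starts, and 99.9991% and 99.9993% of the reads of libraries 1 and 2 began at one. Of the 226 segments, 163 had at least 1000 unique starts in the 2-kb window around their 5′ start and were tested. The other 63 were all *Trav* segments, fell below this minimum and were not tested one by one, though their unique starts count in the values for *Trav* as a class. The 1-Mb flanks of the *Tra/Trd*, *Trb* and *Trg* loci had 21.9, 20.2 and 20.3 reads per 1000 unique starts in library 1, and 12.9, 12.7 and 11.2 in library 2. All intervals below are 95% exact intervals for counting error only. The spread between the libraries may be technical, since the labels do not say that they came from separate mice or cultures.

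Segments were first compared with their chromosome (exact two-sided Poisson test, Benjamini-Hochberg q under 0.01 over 49556 genes, in both libraries). Of the 163 segments tested, 65 had less than 0.5 of the density of the chromosome in both libraries, or 39.9%, against 7.29% of all genes tested. A density of more than 2 times the chromosome was found at 30 of the 163 segments, against 5357 of the 49556 genes tested (10.8%). The median ratio to the chromosome was 0.687 and 0.748 over the segments tested and 1.06 and 1.10 over all genes tested, in libraries 1 and 2. The 2-kb windows of neighbouring J segments overlap, and neighbouring windows are therefore not independent. Immunoglobulin gene segments, the like arrays of B cells, were below 0.5 of their chromosome at 112 of 241 segments tested, and above 2 times at 5. The share below was 46.5%, larger than the 39.9% of T cell receptor segments, so a high share of low segments was not particular to the T cell receptor loci. In ChIP-seq without an input, fewer copies of a sequence and less DNA recovered per copy cannot be told apart. Unique starts were defined by exact copies alone. Whether reads were also lost at unique starts with near copies elsewhere, which would lower the density too, was not tested.

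By class, the lowest densities were those of the *Trd* segments and the highest those of *Traj*, *Trac* and *Trbc*. Each class was counted as its segments plus 1 kb either side and set against the flanks of its locus (exact conditional binomial test, Benjamini-Hochberg over 14 classes and both libraries). The flanks themselves varied. Their 10-kb tiles at *Tra/Trd* ran from 0.0915 (5th percentile) to 1.87 (95th percentile) of the flank mean in library 1. In library 2 they ran from 0.111 to 1.72. These 5th percentiles lay below the ratios of *Trav* (0.289 and 0.280) and above those of the *Trd* classes, which reached 0.0617 and 0.0881. The lowest flank tiles were not set against the classes. The tests, which take the flank mean with counting error only, do not hold this spread. At *Trb* and *Trg* the same percentiles were 0.458 and 1.72, and 0.477 and 1.98, in library 1. Of the 14 classes, 8 were called lower than the flanks, 4 higher, and *Trbd* and *Trbj* were not called. Several of these calls turn on the processing. *Trbj* was called higher under 4 alternatives (means of 1.29 to 1.38), *Trgc* lost its call under 5, and *Trdd*, *Trdj*, *Trbc* (1.23 in place of 2.13) and *Trgj* lost theirs with no sequence added to the segments. In the plot by class the 5 lowest classes all belong to chromosome 14 and, with the exception of *Trav*, all to *Trd*.

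**Figure D1:**
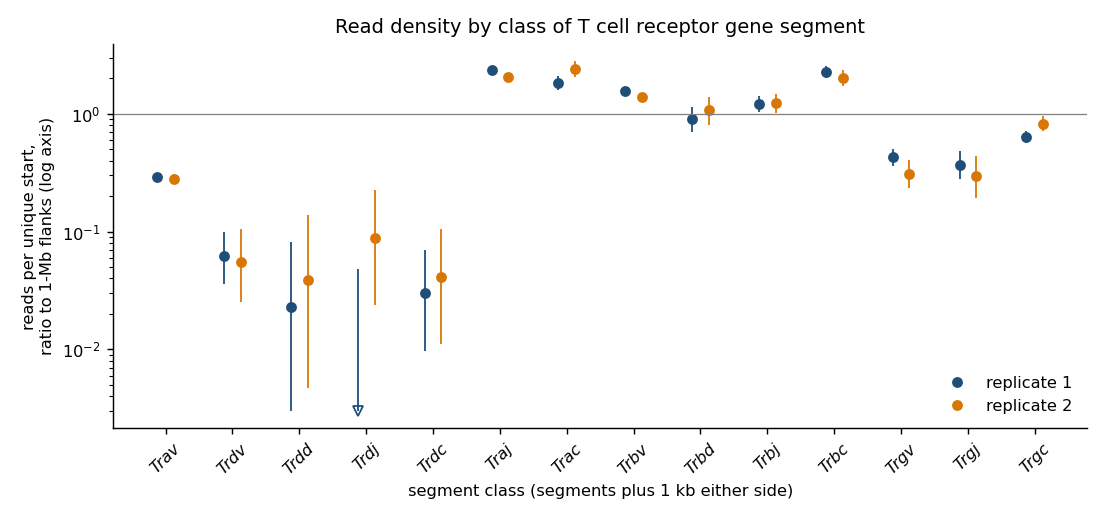
Reads per unique start of each class of T cell receptor segment (segments plus 1 kb either side) as a ratio to the 1-Mb flanks of its locus, on a log axis, for replicates 1 and 2. Points are the ratios, bars are 95% exact intervals for counting error, and the open triangle marks a class with 0 reads (*Trdj* in replicate 1, upper limit 0.0479). The *Trd* classes sit below 0.1 and *Traj*, *Trac* and *Trbc* at 1.83 or above.

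*Trdc*, the constant segment of the δ chain, had 5 reads in library 1 and 4 in library 2 over its 7618 unique starts. This was 0.0300 of the flanks (interval 0.00975 to 0.0701; exact q = 6.33e-63) and 0.0408 of the flanks (0.0111 to 0.104; exact q = 7.42e-36). The window around its 5′ start held 0 reads in both libraries, which allows up to 3 reads in each by a one-sided limit. The D segments *Trdd1* and *Trdd2* together had 2 reads in each library, at ratios of 0.0227 and 0.0386. *Trdj1* and *Trdj2* had 0 reads in library 1, for a ratio of up to 0.0479, and 4 reads in library 2, for a ratio of 0.0881. From *Trdd1* to *Trdj2*, over 23370 bp, 7 and 4 reads were found, at 0.0192 (0.00773 to 0.0396) and 0.0186 (0.00508 to 0.0478) of the flanks. The low level thus held for the sequence between the segments too, and the interval of each library contained the ratio of the other.

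The 5 *Trdv* segments were all called lower, against 7.29% of all genes tested, and stood at 0.0617 and 0.0554 of the flanks as a class. *Trdv1* had 5 and 2 reads, *Trdv2-1* had 1 and 0, *Trdv2-2* had 2 and 0, and *Trdv4* had 5 and 2. *Trdv5* is inverted and lies downstream of *Trdc*, before the first *Traj* segment. It had 1 and 3 reads, at 0.0305 and 0.147 of the chromosome, and was called lower with the rest of its class. In library 2 it was the highest of the 5. Over the whole sequence from the last *Trav* segment, *Trav23*, to the first *Traj* segment, *Traj59*, 110 and 73 reads began at 168386 unique starts, at 0.0299 (0.0246 to 0.0360) and 0.0337 (0.0264 to 0.0423) of the flanks. By the order of the segments, this stretch is removed by every *Trav* to *Traj* join, whichever segments are used. Whether such joins account for its low density was not tested.

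**Figure D2:**
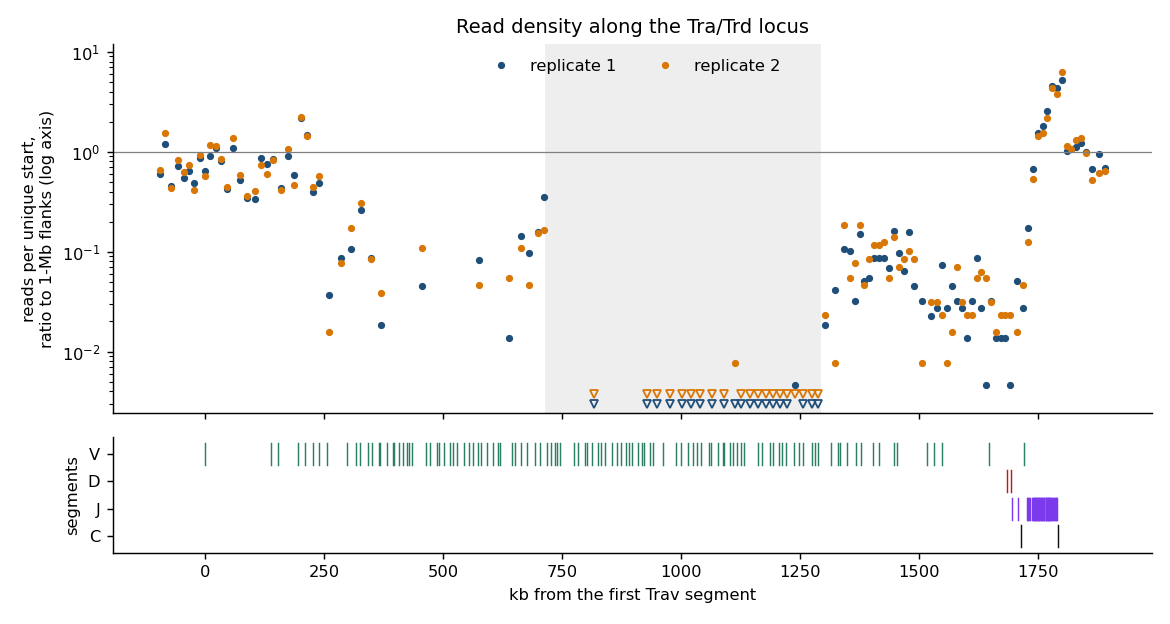
Reads per unique start along the *Tra/Trd* locus in windows of 10000 unique starts (shorter where a window meets the border of the grey band), as a ratio to the 1-Mb flanks on a log axis, against the distance from *Trav1*, for replicates 1 and 2. Open triangles at the foot mark windows with 0 reads, the grey band marks the stretch in which each library had 1 read, and the lower panel marks the start of each V, D, J and C segment. Density is on average near that of the flanks at the 5′ end, where the windows vary. It is low over the middle and 3′ *Trav* segments and *Trd*, and above the flanks at the 3′ *Traj* segments.

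The 5′ part of the *Trav* array had the highest density, and the rest of the array was low. Cut into 3 parts of equal length, the array stood at 0.605 and 0.636 of the flanks in its 5′ part, 0.0605 and 0.0438 in its middle part, and 0.0438 and 0.0471 in its 3′ part. The middle and the 3′ part each include some of a stretch almost without reads, described below, which lowers their values. The 3′ part thus had 0.0724 (0.0645 to 0.0811) of the density of the 5′ part in library 1, from 333 and 3353 reads, and 0.0741 (0.0640 to 0.0854) in library 2, from 211 and 2077 reads. Both exact p-values were too small to be represented. The 5′ end of the array was close to the flanks. From *Trav1* to *Trav6-1*, over 219886 bp with 5 *Trav* segments, the ratios were 0.843 (0.812 to 0.875) and 0.872 (0.831 to 0.915). The border of this part was set on these reads, as the last window of 10000 unique starts at 0.5 of the flanks or more in both libraries. The next windows, which hold *Trav7-1* and *Trav6-2*, stood at 0.394 and 0.490 in library 1 and 0.443 and 0.575 in library 2, and the window after them, which holds *Trav7d-2*, at 0.0366 and 0.0155.

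From *Trav7-1* to *Trav6n-6*, 41 segments over 496175 bp, the ratios were 0.153 and 0.160. Only 29.5% of positions in this part are unique starts, since it holds most of a duplicated block. The share is 35.7% in the stretch described below, 74.6% at the 5′ end and 79.5% at the 3′ end. At the 3′ end of the array, from *Trav16* to *Trav23*, 332 and 210 reads gave 0.0742 (0.0664 to 0.0827) and 0.0797 (0.0692 to 0.0913) of the flanks. The ratio was then lower again beyond *Trav23*, at the 0.0299 and 0.0337 given above, and the intervals of the 2 parts did not overlap in either library. *Trav1*, the first segment of the array, had 42 and 22 reads, at 1.31 and 1.10 of the chromosome, and *Trav23*, the last, had 2 and 0 reads.

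Between *Trav6n-6* and *Trav16* a stretch of the array had almost no reads. It ran from 53143989 to 53720123 on chromosome 14 (GRCm38), over 576135 bp with 54 *Trav* segments from *Trav7n-5* to *Trav7-6*. At the mean density of the chromosome its 205405 unique starts would give 3538 reads in library 1 and 2207 in library 2, and 1 read was found in each. The borders of the stretch were set on these reads, as runs of unique starts without a read, so that its low count and the 0 reads of its segments are a description and follow from how it was chosen. All 21 segments inside it that were tested had 0 reads in both libraries, among them the lowest of the V segments of the locus, *Trav7-5*, *Trav12-3* and *Trav4-3*, which are named as 3 of 21 equal values.

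These 54 segments weigh on the results for *Trav*. As a class, *Trav* stood at 0.289 (0.268 to 0.312) and 0.280 (0.253 to 0.310) of the flanks, and at 0.520 (0.481 to 0.560) and 0.504 (0.455 to 0.556) with these segments left out, which is lower than the flanks too. The ratio of the 3′ to the 5′ part of the array, 0.0732 as the mean of both libraries, was 0.124 without the stretch. Of the 47 *Trav* segments tested, 36 (76.6%) were called lower than the chromosome, against 7.29% of all genes tested. They were 21 inside the stretch and 15 of the 26 outside it. The median ratio of the 26 segments outside the stretch was 0.230 and 0.257. With the stretch left out, 44 segments of the 3 loci were called lower in place of 65.

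Other stretches of this kind were looked for on all chromosomes but Y. Runs of at least 20000 unique starts without a read in either library numbered 13, and runs separated by single reads were joined, which gave 9 stretches. The *Trav* stretch was the second of them by unique starts. Whether the mice carried the sequence of the *Trav* stretch was not tested.

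The J segments of the α chain were the reverse of *Trd*. As a class, *Traj* had 3109 reads in library 1 and 1589 in library 2, at 2.37 (2.28 to 2.45) and 2.05 (1.95 to 2.16) of the flanks. Of the 51 segments, 6 (11.8%) were called lower than the chromosome, against 7.29% of all genes tested. Another 21 were called higher, against 10.8% of all genes tested. The 6 lower segments were the 5 at the 5′ end of the array, *Traj59*, *Traj58*, *Traj57*, *Traj56* and *Traj53*, and *Traj49*. The 21 higher segments began with *Traj39*, and all of the 12 segments from *Traj16* to *Traj2* were among them. Cut into 2 parts of equal length, the array had in its 5′ part 0.315 (0.290 to 0.343; exact q = 1.15e-189) of the density of the 3′ part in library 1 and 0.293 (0.260 to 0.331; exact q = 1.62e-108) in library 2.

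**Figure D3:**
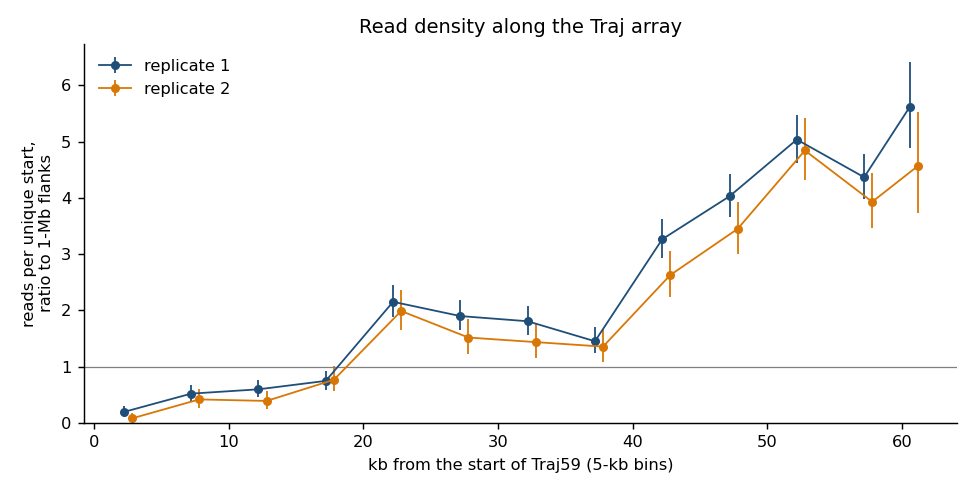
Reads per unique start along the *Traj* array in 5-kb bins (the last bin is shorter), as a ratio to the 1-Mb flanks, against the distance from *Traj59*, for replicates 1 and 2, with 95% exact intervals for counting error. The first bin sits at 0.193 and 0.0779, the fourth at 0.745 and 0.765, and the bins from the ninth on at 2.63 or above.

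In 5-kb bins from *Traj59*, the first bin had 21 and 5 reads, at 0.193 (0.119 to 0.295) and 0.0779 (0.0253 to 0.182) of the flanks. The next 2 bins stood at 0.518 and 0.595 in library 1 and 0.416 and 0.388 in library 2. The fourth bin, from *Traj47* to *Traj42*, was at 0.745 and 0.765. The fifth, with *Traj39*, was the first above the flanks, at 2.15 (1.88 to 2.45) and 1.99 (1.66 to 2.36). The bin from *Traj12* to *Traj9* stood at 5.04 (4.62 to 5.48) and 4.84 (4.31 to 5.42), and the last bin, from *Traj4* to *Traj2*, at 5.61 (4.89 to 6.42) and 4.56 (3.73 to 5.53), with overlapping intervals. *Traj59*, the first J segment, had 2 and 3 reads in its window, and *Traj2*, the last, had 291 and 136, at 8.45 and 6.33 of the chromosome. The window of *Traj15* was the highest in library 1, with 312 reads at 9.06 of the chromosome, and had 147 reads at 6.84 in library 2. *Trac*, the constant segment of the α chain, had 71 and 62 reads, at 2.06 and 2.88 of the chromosome, and was called higher, though not when library 1 was thinned to equal depth (mean 2.36 in place of 2.47) or when the mean of the genome was used (2.39). It stood at 1.83 (1.60 to 2.09) and 2.39 (2.05 to 2.78) of the flanks with 1 kb either side.

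At the *Trb* locus the lowest density lay between the V and the D segments, and parts of the V array were below the flanks too. *Trbv* as a class was higher than the flanks, at 1.57 (1.5 to 1.65; exact q = 1.45e-63) and 1.39 (1.30 to 1.49; exact q = 9.19e-21). From *Trbv1* to *Trbv30*, with the sequence between the segments, the ratios were 0.854 and 0.735. From *Trbv30* to *Trbd1*, over 251210 bp that hold the trypsinogen genes, the ratios were 0.255 (0.239 to 0.272) and 0.297 (0.275 to 0.320). Within this interval the lowest window of 10000 unique starts in library 2, from 41438159 to 41454226 on chromosome 6, had 5 and 1 reads, at 0.0248 and 0.00788 of the flanks.

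Of the 22 *Trbv* segments 2 were called lower, or 9.09%, near the 7.29% of all genes, *Trbv26* with 6 and 5 reads and *Trbv30* with 13 and 4 reads, both in the 3′ part of the array. *Trbv30* lost its call when library 1 was thinned to equal depth, at a mean ratio of 0.318 in place of 0.273. *Trbv14* was the third lowest by the mean of both libraries, with 24 and 7 reads, and was not called. The 5 of 22 called higher, against 10.8% of all genes tested, were *Trbv1*, *Trbv5*, *Trbv12-1*, *Trbv12-2* and *Trbv31*. Of these, *Trbv1* lost its call without reads in peaks (1.92 in place of 2.71, as means of both libraries) and in a 4-kb window (1.78), and *Trbv12-1* in a 4-kb window (2.34 in place of 2.50). *Trbv5* was the highest of them, with 311 and 199 reads at 8.64 and 8.85 of the chromosome. *Trbv12-2* had 183 and 85 reads at 5.03 and 3.74. *Trbv31* is inverted and lies downstream of *Trbc2*, and had 143 and 71 reads at 3.93 and 3.13. Cut into 3 equal parts, the *Trbv* array stood at 0.712, 1.20 and 0.577 of the flanks from 5′ to 3′ in library 1 and at 0.566, 1.07 and 0.498 in library 2, with the middle part highest. The last part had 0.812 (0.750 to 0.878; exact q = 2.12e-07) of the density of the first in library 1 and 0.881 (0.790 to 0.983; exact q = 0.0234) in library 2, which did not pass q under 0.01 in both. The direction of this difference turned per kb of all sequence (mean 1.14), and it was called without reads in peaks (0.759).

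**Figure D4:**
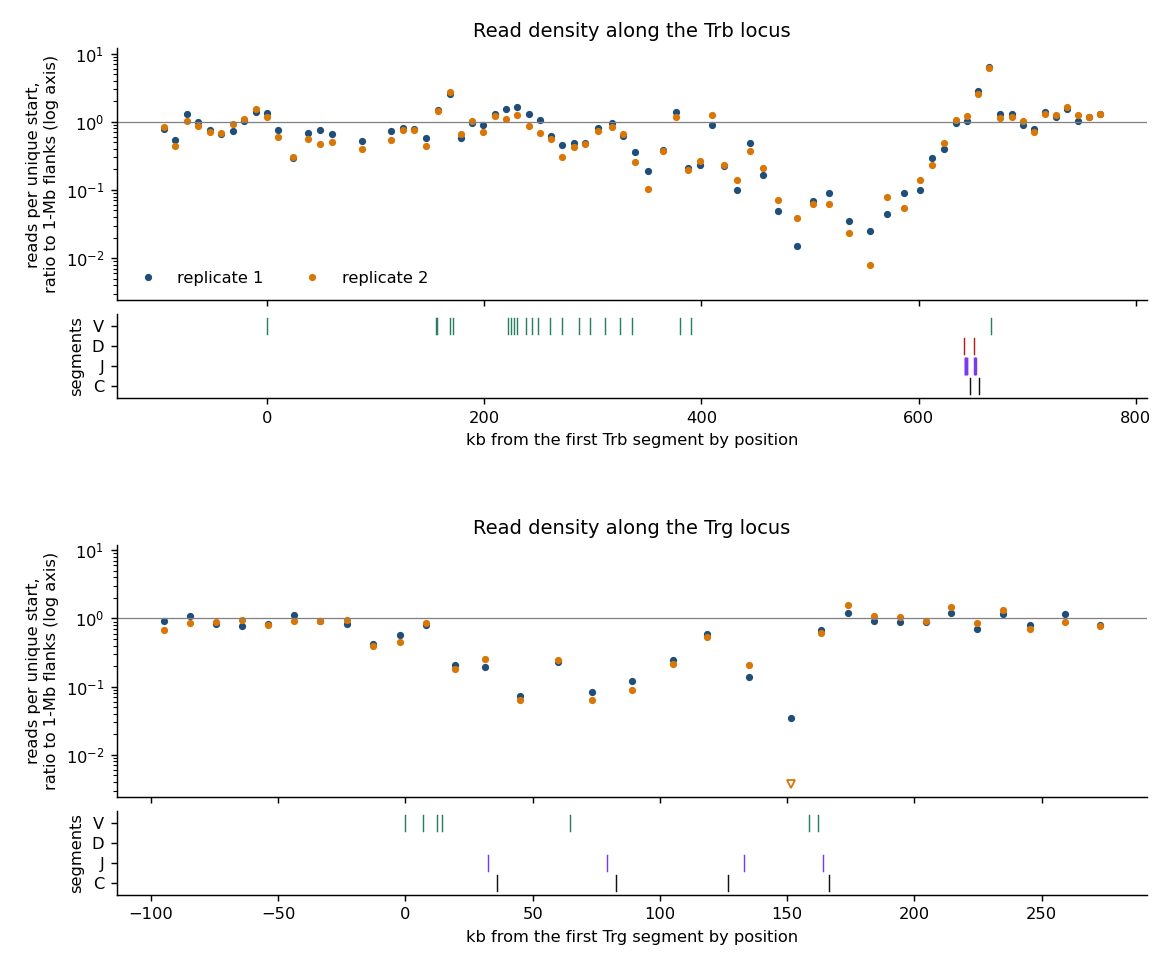
Reads per unique start along the *Trb* (upper) and *Trg* (lower) loci in windows of 10000 unique starts, as a ratio to the 1-Mb flanks on a log axis, against the distance from the first segment by position, for replicates 1 and 2. The open triangle marks a window with 0 reads, and the panels beneath mark the start of each V, D, J and C segment. In *Trb* the windows below 0.1 in both replicates all lie between *Trbv30* and *Trbd1*. Further low windows lie at *Trbv26* (0.361 and 0.260) and *Trbv30* (0.208 and 0.197). Another, between *Trbv26* and *Trbv29* and without a segment, stands at 0.188 and 0.102. In *Trg* the low windows lie from *Tcrg-V5* to before *Trgv2*, where 1 window stands above the rest at 0.585 and 0.529.

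*Trb* has 2 clusters of D, J and C segments, whose difference was not tested. *Trbd1* had 14 and 23 reads in its window, at 0.385 and 1.01 of the chromosome, and *Trbd2* had 58 and 31, at 1.64 and 1.40. From *Trbd1* to *Trbj1-7* the ratios to the flanks were 0.338 (0.197 to 0.542) and 0.602 (0.362 to 0.940), and from *Trbd2* to *Trbj2-7* they were 1.52 (1.13 to 1.99) and 1.30 (0.865 to 1.88). The intervals of the 2 clusters did not overlap in library 1 and overlapped in library 2. *Trbj1-1*, the first J segment, had 15 and 13 reads, at 0.412 and 0.572 of the chromosome, and *Trbj2-7*, the last, had 90 and 48, at 2.47 and 2.11. Of the 13 *Trbj* segments 1, *Trbj2-7*, was called higher, which is near the 10.8% of all genes. *Trbc1* had 41 and 22 reads, at 1.33 and 1.14 of the chromosome, and *Trbc2* had 81 and 67, at 2.62 and 3.47, and was called higher, a call that was lost without reads in peaks (mean 2.66 in place of 3.04). The sequence from *Trbj2-7* to *Trbv31*, which contains Eβ, stood at 4.58 (4.34 to 4.84) and 4.75 (4.43 to 5.08) of the flanks.

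At the *Trg* locus 11 of the 15 segments were called lower and 0 higher. Of all genes tested, 7.29% were called lower and 10.8% higher. The 7 *Trgv* segments stood at 0.427 (0.358 to 0.506) and 0.310 (0.232 to 0.406) of the flanks and the 4 *Trgj* segments at 0.370 and 0.295. The 4 segments not called lower lie at the ends of the locus. *Tcrg-V7*, the first V segment, had 31 and 9 reads, at 0.883 and 0.415 of the chromosome, and *Tcrg-V4* had 36 and 18, at 0.952 and 0.771. *Trgj4* had 44 and 17 reads, at 1.16 and 0.728, and *Tcrg-C4* had 38 and 25, at 1.01 and 1.07. The other 3 constant segments had few reads. *Tcrg-C1* had 2 and 0 reads, *Tcrg-C3* had 2 and 1, and *Tcrg-C2*, which lies on the other strand, had 0 and 1. *Trgj1* had 3 and 5 reads, *Trgj3* had 2 and 0 and *Trgj2* had 5 and 1.

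Between the ends of the *Trg* locus most of the sequence was low, with the exception of 1 window of 10000 unique starts beside *Tcrg-C2*, at 0.585 and 0.529 of the flanks. From *Tcrg-V3* to *Trgj3* the ratios to the flanks were 0.0975 (0.0611 to 0.148) and 0.0727 (0.0332 to 0.138), and from *Tcrg-C2* to *Trgv2* they were 0.0433 (0.0252 to 0.0693) and 0.0279 (0.0102 to 0.0606). *Tcrg-V1*, which lies beside *Trgj4*, had 1 and 1 reads in its window, while *Trgj4* to *Tcrg-C4* stood at 1.20 (1.06 to 1.36) and 1.49 (1.28 to 1.73). As a class, *Trgc* was at 0.638 (0.563 to 0.719; exact q = 3.98e-15) and 0.824 (0.710 to 0.95; exact q = 0.00811), and this call was lost under 5 alternatives. *Trgv2* had 13 and 3 reads, and *Tcrg-V3*, *Tcrg-V5* and *Tcrg-V6* had 10 and 4, 7 and 4, and 15 and 4 reads, all called lower. The calls of *Trgv2* and *Tcrg-V3* were lost with library 1 thinned, at mean ratios of 0.337 in place of 0.285 and 0.292 in place of 0.270, and that of *Tcrg-V1* in a 4-kb window (0.452 in place of 0.0473).

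In 10-kb tiles, 110 of the 178 tiles of the 3 loci with enough unique starts were lower than 0.5 of the chromosome in both libraries, or 61.8%, against 8.47% of all tiles tested. The *Tra/Trd* locus had 74 of 101 such tiles, *Trb* 24 of 60 and *Trg* 12 of 17. A run of 60 tested tiles on chromosome 14, from 53340001 to 54160000, was the fourth longest run of lower tiles in the genome. It began inside the *Trav* stretch without reads and ended at the 5′ end of the *Traj* array.

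The second question was where Gata3 ChIP-seq reads gathered to peaks in the loci. Peaks were called in each library from 200-bp windows (one-sided exact Poisson test against the highest of the library, 5-kb and 10-kb means, Benjamini-Hochberg q of 0.01) and counted as shared where those of both libraries overlapped. Of 23806 shared peaks in the genome, 22 had their summit inside the loci, 11 in *Tra/Trd*, 11 in *Trb* and 0 in *Trg*. The count was 5 at a q of 1e-10, 8 at 5-fold over the background and 56 for library 1 alone. The 22 shared peaks gave 6.12, 16.5 and 0 per Mb of all sequence in *Tra/Trd*, *Trb* and *Trg*. The flanks of these loci had 20, 17 and 12 per Mb, and the genome had 8.73. These values were not corrected for unique starts, which make up 82.8% of positions in the genome. In the *Trav* array they make up 35.7% inside the stretch without reads and 52.9% outside it. The order of *Tra/Trd* and the genome may therefore differ per unique start, which was not tested. Where few reads are left a peak can hardly be called, and 0 shared peaks does not show that Gata3 was not bound. With no input or IgG library, a peak does not by itself show that Gata3 was bound either.

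The highest shared peak beside a T cell receptor locus lay between *Trac* and *Dad1*, the gene next to the locus, in the interval of Eα. Its summit was at 54227550 on chromosome 14 in both libraries, 3344 bp 3′ of *Trac*. At the summit 193 reads were counted in library 1 and 142 in library 2, or 5.71 and 5.68 times the background expected there. The exact p-value in library 1 was 4.46e-79. Scaled to library depth this was 4.76 and 5.69 RPM, against medians of 0.988 and 0.881 over all shared peaks, and by the lower of its 2 RPM values it ranked at percentile 99.8 of all shared peaks. A second shared peak, 2079 bp from *Dad1*, had 67 and 30 reads. The whole interval from *Trac* to *Dad1* was at 4.86 (4.58 to 5.15) and 5.85 (5.45 to 6.27) of the flanks.

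The Eβ interval, between *Trbc2* and the inverted *Trbv31*, held 1 shared peak. Its summit was at 41554350 on chromosome 6, 3341 bp 3′ of *Trbv31*, with 116 and 91 reads, or 4.40 and 4.57 times the background (exact p = 9.15e-38 in library 1). It reached 2.86 and 3.65 RPM and lay at the 96.1 percentile of shared peaks. The interval as a whole was at 5.49 (5.16 to 5.85) and 5.84 (5.40 to 6.30) of the flanks. On the other side of *Trbv31*, 2298 bp from it and outside the locus, a peak at 41560750 had 95 and 34 reads.

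**Figure D5:**
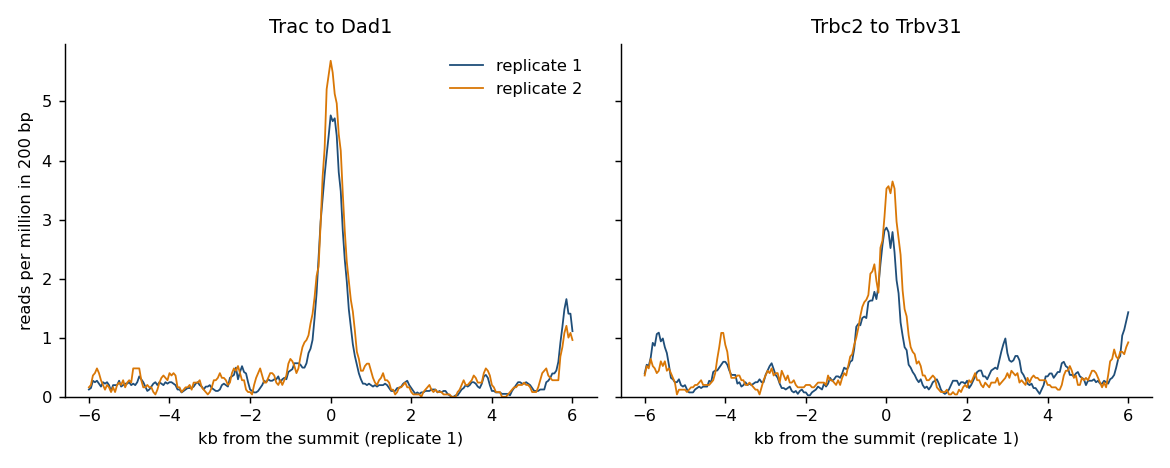
RPM (reads scaled to library depth) in 200-bp windows every 50 bp around the highest shared summits between *Trac* and *Dad1* (left) and between *Trbc2* and *Trbv31* (right), against the distance from the summit in replicate 1, for replicates 1 and 2. The summits reach 4.76 and 5.69 RPM on the left and 2.86 and 3.65 near the centre on the right.

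The sequences under these summits and those at *Trav6-1* and beyond *Trbv31* are shown for their GATA words, as 200 bases of the plus strand of GRCm38, with those words on either strand in capitals, and TGACGTCA, the word bound by CREB and ATF factors, in capitals in the first.
*Trac* to *Dad1*, chr14:54227451-54227650: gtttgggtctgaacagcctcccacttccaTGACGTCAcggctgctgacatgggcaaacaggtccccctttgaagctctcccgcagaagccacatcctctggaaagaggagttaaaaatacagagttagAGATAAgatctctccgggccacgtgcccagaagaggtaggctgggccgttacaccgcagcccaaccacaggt
*Trbc2* to *Trbv31*, chr6:41554251-41554450: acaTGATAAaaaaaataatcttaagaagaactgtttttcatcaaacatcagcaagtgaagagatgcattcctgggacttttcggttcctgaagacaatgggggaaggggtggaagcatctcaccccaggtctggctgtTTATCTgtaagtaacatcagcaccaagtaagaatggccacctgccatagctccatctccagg
At *Trav6-1*, chr14:52638251-52638450: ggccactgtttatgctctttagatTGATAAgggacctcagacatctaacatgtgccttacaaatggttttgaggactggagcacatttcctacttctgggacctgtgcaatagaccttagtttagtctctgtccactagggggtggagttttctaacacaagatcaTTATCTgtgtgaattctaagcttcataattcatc
Beyond *Trbv31*, chr6:41560651-41560850: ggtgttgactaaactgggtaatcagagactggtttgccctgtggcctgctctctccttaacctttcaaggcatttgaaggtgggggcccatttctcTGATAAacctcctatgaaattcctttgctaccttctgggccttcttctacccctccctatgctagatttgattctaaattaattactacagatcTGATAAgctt
The Eα window held 1 GATA word, AGATAA, and the others shown 2 each. These windows are a selection, and some other shared peaks of the loci held 0 GATA words. Among those was the second peak between *Trac* and *Dad1*. In the *Traj* array the peaks near *Traj39*, *Traj20* and *Traj7* held 1, 0 and 1. The share over all shared peaks of the loci was not computed. A GATA word occurs in 70.9% of the windows of this length at all 23806 shared summits, and in 33.5% and 32.9% of those 1 kb before and after them. TGACGTCA occurs in 68 of the summit windows (0.286%), and in 0.134% and 0.118% of those beside them. A word in a window does not show that a factor bound it there.

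The other intervals set for enhancers and germline promoters held 0 shared peaks. Eδ, between *Trdj2* and *Trdc*, had 5 and 1 reads in all, at 0.0439 and 0.0149 of the flanks. The 5 kb before *Traj59*, where the TEA promoter lies, had 3 and 5 reads, at 0.0275 and 0.0776. The 1 kb before *Trbd1* had 11 and 23 reads, at 0.545 (0.272 to 0.974) and 1.81 (1.15 to 2.72). The 15 kb downstream of *Tcrg-C1* and of *Tcrg-C3* had 12 and 5, and 21 and 5 reads. Those downstream of *Tcrg-C2* had 145 and 77 reads, at 0.589 and 0.570, and those downstream of *Tcrg-C4* had 270 and 181, at 0.909 and 1.11. Of the 9 intervals, 2 thus held a shared peak, and 1, that of Eα, at 5-fold over the background. In library 1 alone 3 intervals held a peak, among them that downstream of *Tcrg-C2*.

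A shared summit lay within 1 kb of the 5′ start of 11 segments, or 4.87% of 226, against 4.58% of all genes. These shares are near each other, but both count genes with too few unique starts to be tested. All 11 segments were among the 163 tested, and the share among all genes tested was not computed. Whether tested segments differ from tested genes is therefore not shown. It was 1 segment at a q of 1e-10, 2 at 5-fold and 26 for library 1 alone. The highest of these peaks stood 165 bp 5′ of *Trav6-1*, with 98 and 46 reads, or 8.57 and 6.89 times the background (exact p = 6.86e-56 in library 1), at the 88.2 percentile of shared peaks. *Trav6-1* was also the only *Trav* segment called higher than the chromosome, with 226 and 118 reads in its window at 7.03 and 5.88. That window includes the peak, and without reads in peaks the mean of both libraries fell from 6.46 to 2.01 and the call was lost. The next highest were *Trav2* with 87 and 42 reads and *Trav5-1* with 56 and 32. Smaller shared peaks lay 117 bp from *Trav6d-4*, with 19 and 11 reads, and 799 bp from *Trav6d-3*, with 12 and 11 reads. They stood at the 6.33 and 0.166 percentiles of shared peaks. Of the same family, *Trav6-2*, *Trav6d-5* and *Trav6n-6* were tested and had no shared peak within 1 kb. The same holds for *Trav6-3*, *Trav6-4* and *Trav6-7-dv9*, which lie in the stretch almost without reads. The windows of *Trav6d-4* and *Trav6d-3* were at 0.976 and 0.917, and 1.07 and 1.71, of the chromosome. In *Trb*, shared summits lay 82 bp from *Trbv5*, 301 bp from *Trbv12-2* and 907 bp from *Trbv13-1*, with 62 and 42, 41 and 25, and 27 and 15 reads.

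In the *Traj* array 3 shared peaks lay within 1 kb of the start of 5 segments. The peak at 54179400, 562 bp 5′ of *Traj39*, had 37 and 19 reads, the peak at 54199650, 152 bp 3′ of *Traj20* and within 1 kb of *Traj19* and *Traj21*, had 59 and 28 reads, and the peak at 54210800, 670 bp 5′ of *Traj7*, had 74 and 44 reads. The remaining 13 shared peaks inside the loci were not within 1 kb of a segment. In *Tra/Trd* they lay at the olfactory receptor genes *Olfr1509* and *Olfr1507*, at 2 sites near *Gm36448* and 2418 bp 3′ of *Trav5-1*. In *Trb* they lay near *Trbv2*, 1684 bp 3′ of *Trbv14*, at the segments *Trbv22* and *Trbv28*, which are not among the 226, 5869 bp from *Try4* and 14305 bp from *Try10*, both trypsinogen genes, 2501 bp 5′ of *Trbd1* and in the Eβ interval. The peak 5′ of *Trbd1* had 36 and 30 reads. All 3 peaks in the *Traj* array lay in its part above the flanks, 3′ of *Traj40*.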

How the data were processed

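Gata3 was measured by ChIPmentation, a ChIP-seq method in which Tn5 tags chromatin on the beads, in 2 libraries of TH2 cells. Splenic naïve CD4+ T cells had been cultured on anti-CD3 with anti-CD28, IL-2, IL-4 and anti-IFNγ. The authors sequenced single 50-base reads, aligned them with Bowtie2 (version 2.3.5.1) and removed reads without a unique position. The submitters' notes also list MACS2 (version 2.1.2). The build was GRCm38. The authors deposited 1 line per read with its position and, as a score, its mapping quality (22 to 44). No 2 reads of a library shared 5′ end and strand, so duplicates are not present.

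Reads were counted by lowest coordinate per unique start, with Python 3.11.15, NumPy 2.4.6, SciPy 1.17.1 and pandas 2.3.3, and drawn with Matplotlib 3.10.9. A start was unique when its 50 bases occurred once in the primary assembly and in none of the 77 patch or alternate sequences taken to be in the alignment index, because the primary positions they copy held 52 reads over 18062075 starts. Genes came from GENCODE M21. The tests were exact Poisson tests of 2-kb windows and 10-kb tiles against the chromosome, exact conditional binomial tests of classes against 1-Mb flanks and of the 3′ against the 5′ of 3 equal parts (*Trav*, *Trbv*) and the 5′ against the 3′ of 2 equal parts (*Traj*) of an array, and one-sided exact Poisson tests for peaks (200-bp windows, step 50 bp, reads shifted by 100 bp, joined within 100 bp). Calls needed a Benjamini-Hochberg q under 0.01 in both libraries. The scripts were tested on simulated data.

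The segments, classes, enhancer intervals and immunoglobulin segments were chosen with earlier results of these data known. Segments were named when first or last of their array, D or C segments, inverted, called higher or with a shared peak, or among the 3 highest or lowest V segments of a locus, and other named segments, with the borders of parts, were chosen after their values were seen. The added alternatives were uniqueness in the primary assembly alone, and the *Trav* stretch left out. The longest of the other stretches without reads is not reported here. Depth was 40526613 and 24970952 reads.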

Additional observations from a re-analysis of the deposited data

How the results depend on the processing

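Values here are means of both libraries. No paired analysis was possible because both libraries belong to a single group. The summary results gave 272 values under alternatives, of which 240 kept their direction and their side of the threshold or, for counts, stayed within 1.5 times. The 56 named segments gave 556 values, of which 538 kept their call or stayed without one. Of the 556, 0 were a reversal that involved a call. Changes of direction in segments without a call were not counted. *Trbd1*, for example, went from 0.699 to 1.01 with library 1 left out. *Trbd*, not called and at 0.984 of the flanks, changed sides to 1.09 per kb of all sequence, 1.10 without reads in peaks, 1.07 with the 5′ flank, 1.04 with 500-kb flanks, 1.10 with the chromosome mean and 1.13 with 500 bp added, and ranged from 0.897 to 1.07 with 1 library left out. *Trbj* was called at 1.38, 1.33, 1.29 and 1.36 per kb of all sequence, with the 5′ flank, with 500-kb flanks and with the chromosome mean. *Trgc* lost its call without reads in peaks (0.802), with the 5′ flank (0.852), with 500-kb flanks (0.829), with no added sequence (0.897) and with 500 bp (0.812). With no added sequence *Trdd* (0), *Trdj* (0), *Trbc* (1.23) and *Trgj* (0.594) also lost their calls, over fewer unique starts. The ratio of the 3′ to the 5′ part of *Trbv* was 1.14 per kb of all sequence, was called at 0.759 without reads in peaks, and ranged from 0.812 to 0.881 with 1 library left out. Per kb of all sequence 129 segments were lower, *Trav* stood at 0.127, and 14.9% of all genes were lower. Shared peaks in the loci numbered 5 at a q of 1e-10 and 8 at 5-fold, and peaks of 1 library alone 26 to 56. Segments with a peak numbered 1, 2 and, within 2 kb, 17, and 12 to 26 in 1 library alone. Enhancer intervals with a peak numbered 1 at 5-fold and 3 in library 1 alone. In an alternative chosen after seeing the data, the *Trav* stretch was left out, which gave 44 lower segments, 56.1% of tiles, 0.512 for *Trav* and 0.124 for its 3′ against its 5′ part in place of 0.0732. Among named segments called higher, *Trav6-1* (2.01), *Trbv1* (1.92) and *Trbc2* (2.66) lost their call without reads in peaks, and *Trac* with library 1 thinned (2.36) or the mean of the genome (2.39). The causes of these differences were not tested.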
